A study of Drosophila melanogaster with 6 samples.

Results

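SREBP is the transcription factor that switches on fatty acid synthesis genes, and this report describes its mRNA, that of the proteins that activate it and that of the enzymes around it in sorted intestinal stem cells (ISCs) of Drosophila melanogaster with and without NF-YA RNAi. A list of 10 gene symbols was looked up, case-sensitively, in the table of normalized counts of 8470 genes that the study deposited. Of these symbols, 9 had a row (SREBP, SCAP, S1P, FASN1, ACC, ATPCL, AcCoAS, Desat1 and Acsl) and 1 (Insig) did not and was not analysed here. The genes were selected with their response to NF-YA RNAi already known, so their values in this contrast are given as a description.

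Cells came from midguts of adult female flies that all carried esg-Gal4 under temperature-sensitive control, UAS-2xYFP and Su(H)GBE-Gal80, a combination the study names ISC-Gal4. In it the enhancer of esg, a gene of stem cells and young progenitors, drives expression, and Gal80 keeps the driver silent in enteroblasts, the progenitors on the way to enterocytes. The 3 control samples came from a cross to Oregon R, a wild-type strain that carries no RNAi transgene, and the 3 NF-YA RNAi samples from a cross to the Vienna stock 106132, so a single RNAi line stands for the knockdown. The parental stock and the presence of an RNAi transgene differ together with the knockdown, and their effects cannot be told apart here. By the labels, flies of both groups spent 3 days at 18 °C, 3 days at 29 °C, at which the driver is active, and 3 more on holidic (chemically defined) food, whereas the methods give 3 days on holidic diet at 29 °C. Cells positive for YFP were sorted and their mRNA was sequenced. The number of flies behind each sample is not given in the sources used here, and p-values measure the spread between these samples.

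The libraries held between 77092609 and 122269943 estimated counts. In controls Nf-YA itself had 16.0, 19.7 and 23.6 CPM (normalized counts on a scale shared by the libraries) in libraries 1, 2 and 3, and in NF-YA RNAi libraries 2, 4 and 5 it had 3.58, 4.92 and 4.30 CPM, 21.6% of the control mean. All 6 libraries therefore matched their labels. Of 8 progenitor markers that could be tested, 2 (esg and mira) were called lower and 0 higher. These 8 summed to 3659 to 4319 CPM in control and 3298 to 3491 CPM in NF-YA RNAi libraries. The symbols Dl and hdc were listed too but could not be matched to a gene, so they were not examined. Transcripts of differentiated gut cells were present as well, and moved with the groups. The 15 enterocyte markers summed to 2084 to 5801 CPM in control and 356 to 1555 CPM in NF-YA RNAi libraries (14 lower, 7 of them called), and the 11 enteroendocrine markers to 1852 to 2372 and 524 to 1215 CPM (11 lower, 6 called). In bulk RNA of sorted cells, fewer cells of a type and less RNA per cell cannot be told apart. The fat body, the main lipogenic organ of the fly, left little trace. Its markers and those of oenocytes summed to at most 2.0 CPM in any library, and Lsp2, Fbp2 and Cyp4g1 had no counts, which allows at most 0.0246 to 0.0378 CPM per library (3 counts, covering counting error only).

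In animal cells SREBP is made as a precursor held in the membrane of the endoplasmic reticulum. SCAP escorts it to the Golgi, where S1P and then S2P cut it and free the part that enters the nucleus and activates transcription. In mammals Insig retains SCAP when sterols are plentiful. Flies cannot make sterols, and fly SREBP answers to fatty acids and phospholipids instead, with fatty acid synthesis as its main target. There, ATPCL (ATP citrate lyase) makes cytosolic acetyl-CoA from citrate and AcCoAS (acetyl-CoA synthase) makes it from acetate. ACC (acetyl-CoA carboxylase) turns acetyl-CoA into malonyl-CoA, FASN1 (fatty acid synthase) builds saturated fatty acids from both, Acsl joins fatty acids to coenzyme A, and Desat1 inserts a double bond. In mammalian cells NF-Y is known to bind next to SREBP at lipogenic promoters. Binding, protein cleavage and lipids were not measured in these libraries.

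Among the 9 genes, the mRNAs of SREBP and of the enzymes from citrate to saturated fatty acid were lower in NF-YA RNAi than in control ISCs. Those of SCAP and S1P, which escort and cut SREBP, and of Desat1 and Acsl, which handle the finished fatty acid, were not called. Of the 9 genes, 5 (SREBP, FASN1, ACC, ATPCL and AcCoAS) had an adjusted p under 0.05 in edgeR's quasi-likelihood test, all 5 lower and 0 higher (at an unadjusted p under 0.05, and likewise with DESeq2, 5 lower and 1 higher, Desat1). Of all 9080 genes tested, edgeR called 14.2%, 8.02% lower and 6.19% higher, and DESeq2 called 1018 genes lower and 827 higher. Since the 9 genes were chosen by this contrast, nothing is read from the difference. The called genes had 46.3% (SREBP) to 77.7% (AcCoAS) of their mean control level. Normalized counts, as the authors deposited them, are given below by library (control 1, 2 and 3, then NF-YA RNAi 2, 4 and 5), and fold changes, standard errors and p-values are from edgeR with Benjamini-Hochberg adjustment over all genes tested. In these counts all control libraries lay on one side of all NF-YA RNAi libraries for 6 of the 9 genes (the 5 above and Desat1) and for 36.6% of the 8470 genes in the table.

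**Figure D1:**
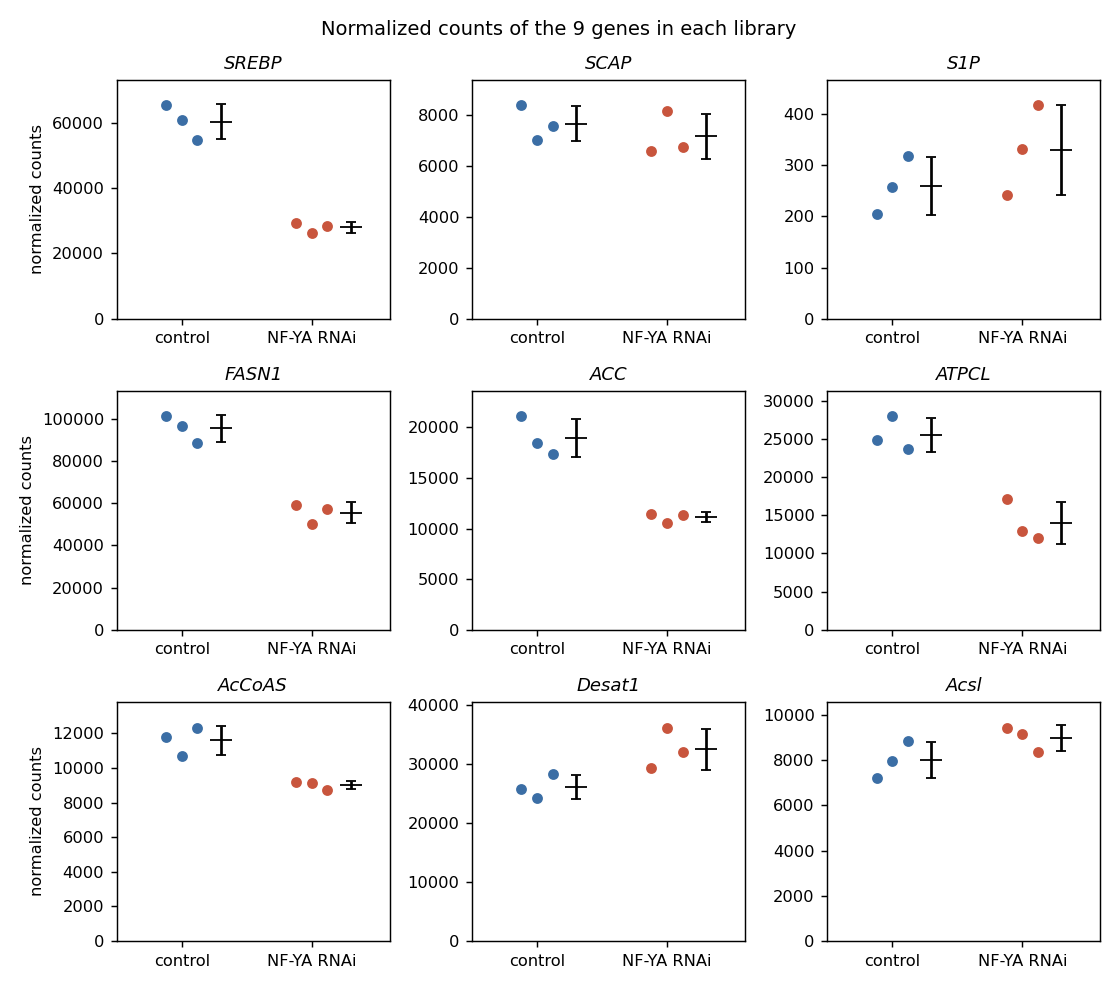
Normalized counts (y axis, starting at 0, 1 scale per panel) of the 9 genes in the 3 control and 3 NF-YA RNAi libraries. Points are libraries, in the order 1, 2, 3 and 2, 4, 5, and the line with its bar is the mean ± SD. SREBP, FASN1, ACC, ATPCL and AcCoAS lie lower in all NF-YA RNAi libraries, Desat1 lies higher, and the groups of SCAP, S1P and Acsl overlap.

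SREBP (FBgn0261283, chromosome 3L, 19793935 to 19798979, plus strand, BDGP6.54) had 65375, 60820 and 54831 normalized counts in the control libraries and 29227, 26150 and 28461 in the NF-YA RNAi libraries. The highest NF-YA RNAi library stood well under the lowest control library. The means were 60342 ± 5288 (SD, n = 3) and 27946 ± 1602 (SD, n = 3), and the log2 fold change was -1.12 ± 0.10 (standard error; edgeR, adjusted p = 0.00018). SREBP showed the largest fall of the 9 genes and ranked 17th by p among all genes that were lower. Its gene spans mir-33, a microRNA gene on the same strand that was not tested here. Nearly all SREBP mRNA was assigned to 1 of its 4 annotated transcripts (SREBP-RC), at 128 ± 10.8 TPM (a level per transcript length within a library) in control and 60.4 ± 2.88 TPM in NF-YA RNAi libraries.

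SCAP (FBgn0033052, 2R, 6026273 to 6036388, minus strand), the escort of SREBP, had 8370, 7026 and 7545 normalized counts in control and 6562, 8155 and 6746 in NF-YA RNAi libraries. The groups overlapped, and the log2 fold change was -0.10 ± 0.12 (standard error; edgeR, adjusted p = 0.631). S1P (FBgn0037105, 3L, 21613797 to 21617376, minus strand), the protease that makes the first cut, had 205, 258 and 318 normalized counts in control and 242, 331 and 417 in NF-YA RNAi libraries. These groups overlapped too, with a log2 fold change of 0.33 ± 0.34 (standard error; edgeR, adjusted p = 0.573). S1P was by far the least abundant of the 9 genes, with at least 201 estimated counts in every library, and its standard error was the widest.

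Of the other 9 genes listed for processing and transport of SREBP, 0 were called in either direction by edgeR (1 higher at an unadjusted p under 0.05 and 1 higher with DESeq2), with a median log2 fold change of 0.00 beside -0.02 over all genes tested. They hold S2P, the protease of the second cut, the coat proteins of the vesicles that carry cargo from the endoplasmic reticulum to the Golgi, and ago, whose mammalian counterpart marks the nuclear form for destruction. S2P had 4.86 ± 1.09 TPM in control and 4.81 ± 0.35 TPM in NF-YA RNAi libraries (SD, n = 3; edgeR, adjusted p = 0.787). The most abundant of them, the coat subunit Sec13, had 93.1 ± 14.6 and 113 ± 12.6 TPM (edgeR, adjusted p = 0.323).

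Fatty acid synthase and its substrate enzyme were lower to nearly the same degree. FASN1 (FBgn0283427, 2L, 3056598 to 3068177, plus strand) had 100964, 96650 and 88386 normalized counts in control and 59215, 49978 and 57210 in NF-YA RNAi libraries. All NF-YA RNAi libraries stood below all controls. The means were 95334 ± 6392 and 55467 ± 4859 (SD, n = 3), 58.2% of control, with a log2 fold change of -0.79 ± 0.10 (standard error; edgeR, adjusted p = 0.0014). ACC (FBgn0033246, 2R, 7974115 to 7991862, minus strand), which commits acetyl-CoA to synthesis, had 21064, 18407 and 17365 normalized counts in control and 11423, 10517 and 11368 in NF-YA RNAi libraries. The groups again lay apart, at 58.6% of the control mean, with a log2 fold change of -0.78 ± 0.10 (standard error; edgeR, adjusted p = 0.0018). ACC shares 2822 bases of its span with Nup44A, a nuclear pore gene on the opposite strand that had a log2 fold change of 0.08 (edgeR, adjusted p = 0.723). Whether counting used the strand of the reads is not given in the sources used here.

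Both enzymes that supply cytosolic acetyl-CoA were lower, ATPCL more than AcCoAS. ATPCL (FBgn0020236, 2R, 15993531 to 16001290, minus strand) had 24848, 27958 and 23690 normalized counts in control and 17171, 12882 and 12051 in NF-YA RNAi libraries. NF-YA RNAi library 2 was the nearest to controls but still below each of them. The NF-YA RNAi mean was 55.0% of control, and the log2 fold change was -0.87 ± 0.14 (standard error; edgeR, adjusted p = 0.0051). ATPCL overlaps 2 genes on the opposite strand, CG8320 by 177 bases and Tmem131 by 110 bases, and neither was called (log2 fold changes of -0.04 and 0.08).

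AcCoAS (FBgn0012034, 3L, 21270722 to 21280243, minus strand) had 11788, 10689 and 12341 normalized counts in control and 9170, 9140 and 8750 in NF-YA RNAi libraries. The groups did not overlap, but the difference was small, at 77.7% of the control mean, with a log2 fold change of -0.37 ± 0.09 (standard error; edgeR, adjusted p = 0.030). This call rested on most libraries. Leaving out any one of the 3 NF-YA RNAi libraries, or control 1 or 3, ended it, and it held only without control 2, with edgeR's adjusted p from 0.046 to 0.128, while the log2 fold change stayed between -0.42 and -0.32.

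Downstream of fatty acid synthase neither gene was called, and the values leaned the other way. Desat1 (FBgn0086687, 3R, 12439600 to 12447616, plus strand) had 25759, 24266 and 28286 normalized counts in control and 29388, 36228 and 32031 in NF-YA RNAi libraries. All NF-YA RNAi libraries exceeded all controls, the nearest pair being control library 3 and NF-YA RNAi library 2. The mean was 1.25-fold that of control, with a log2 fold change of 0.32 ± 0.11 (standard error), which missed the threshold (edgeR, adjusted p = 0.080). It passed with DESeq2 (adjusted p = 0.017) and when libraries were scaled by their size alone, and not under the other alternatives run.

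Acsl (FBgn0263120, 2R, 8665813 to 8683022, plus strand) had 7221, 7966 and 8831 normalized counts in control and 9445, 9183 and 8343 in NF-YA RNAi libraries. The groups overlapped, and the log2 fold change was 0.18 ± 0.10 (standard error; edgeR, adjusted p = 0.290). Acsl shares 808 bases with CG30355 on the opposite strand and 443 bases with UQCR-11L on its own strand, and both were too low to be tested.

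**Figure D2:**
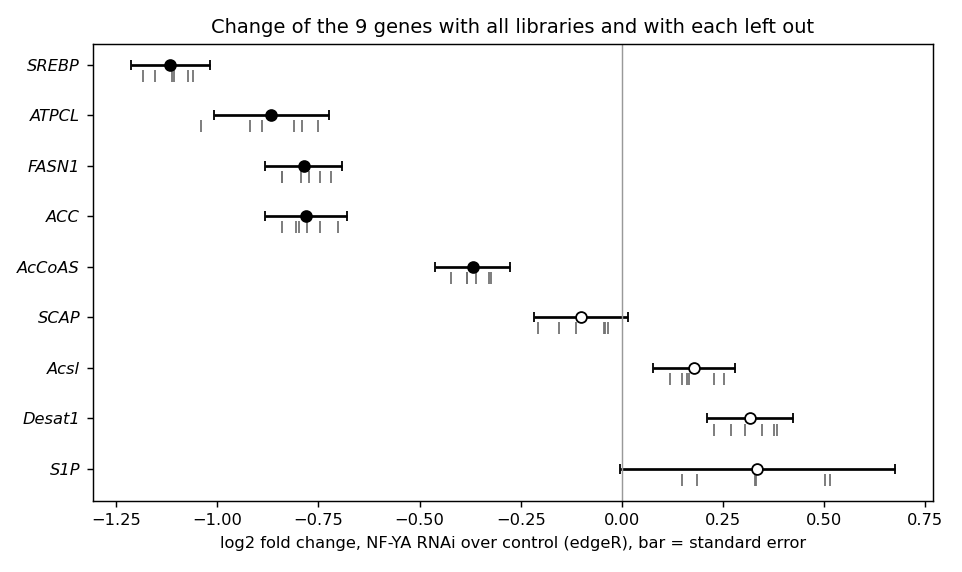
Log2 fold change of NF-YA RNAi over control (x axis) for the 9 genes, from edgeR. Circles are values over all 6 libraries with the standard error as bar, filled where called, and grey ticks are the values with each library left out. SREBP, ATPCL, FASN1 and ACC lie at or below -0.70 whichever library is left out, and S1P spreads from 0.15 to 0.51.

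These differences stood beside the drop in enterocyte and enteroendocrine transcripts given above, whose part in them was not tested. The libraries nearest in enterocyte markers were control library 3, with 2084 CPM, and NF-YA RNAi library 2, with 1555 CPM or 74.6% of that control. Between these 2 libraries, picked after their values were seen, SREBP was at 53.3%, ACC at 65.8%, FASN1 at 67.0%, ATPCL at 72.5% and AcCoAS at 74.3% of control, and Desat1 at 104%. Enteroendocrine markers in the same pair were at 1852 and 994 CPM. In both groups the library with the most enterocyte transcripts (control 1, NF-YA RNAi 2) had the highest normalized counts of SREBP and FASN1. In TPM this held for NF-YA RNAi only, since control library 2 stood above control library 1 (SREBP at 137 against 134 TPM, FASN1 at 95.0 against 90.8 TPM). The library with the fewest enterocyte transcripts had the least of both genes in controls (control 3) and not in NF-YA RNAi (library 5). Visceral muscle markers summed to 174 to 234 CPM in control and 187 to 200 CPM in NF-YA RNAi libraries. Most of these sums was Actn, at 162 to 191 CPM in control and 177 to 192 CPM in NF-YA RNAi libraries. Of the 10 muscle markers 9 were lower, 1 of them called.

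Levels per length placed the genes in an order that differed between the groups. In control ISCs SREBP was the most abundant at 129 ± 11.6 TPM (SD, n = 3), followed by Desat1 (115.3 ± 7.17), FASN1 (89.1 ± 6.93), ATPCL (53.6 ± 7.0), AcCoAS (35.8 ± 1.57), Acsl (19.8 ± 2.31), ACC (19.2 ± 1.65), SCAP (12 ± 0.58) and S1P (0.69 ± 0.16). The ranges of SREBP and Desat1 overlapped, as did those of Acsl and ACC, and the other neighbours lay apart. In NF-YA RNAi libraries Desat1 came first at 152 ± 16.4 TPM, ahead of SREBP (62.9 ± 3.47), FASN1 (54.6 ± 4.66), ATPCL (31.0 ± 6.17), AcCoAS (29.4 ± 0.93), Acsl (23.4 ± 1.62), ACC (11.9 ± 0.51), SCAP (11.9 ± 1.49) and S1P (0.92 ± 0.24). Here ATPCL overlapped AcCoAS and ACC overlapped SCAP. The 9 genes together summed to 458 to 494 TPM in control and 369 to 387 TPM in NF-YA RNAi libraries, of which SREBP and FASN1 took 43.0% to 47.8% and 28.1% to 32.9%.

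**Figure D3:**
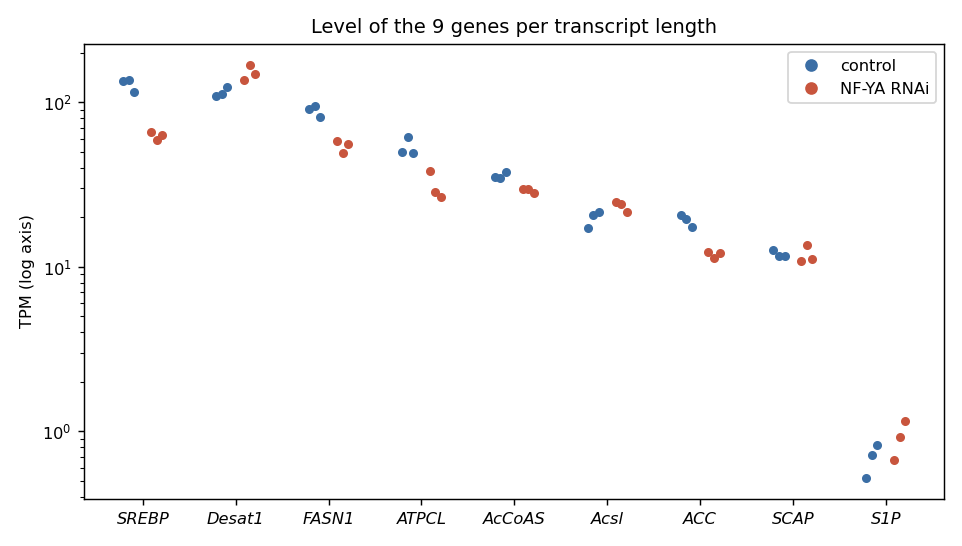
Level of the 9 genes in TPM (y axis, logarithmic) in each control (blue) and NF-YA RNAi (red) library, with genes ordered by their control mean. Desat1 stands alone at the top in NF-YA RNAi libraries at 137 to 170 TPM, where control SREBP and Desat1 overlap.

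Ratios within a library show which genes kept step. There were 0.22 ± 0.01 ACC transcripts per FASN1 transcript in control and 0.22 ± 0.01 in NF-YA RNAi libraries (SD, n = 3), and the groups overlapped. By contrast, FASN1 per SREBP was 0.68, 0.70 and 0.71 in control and 0.89, 0.84 and 0.88 in NF-YA RNAi libraries, higher in each NF-YA RNAi library than in any control. SREBP per SCAP went from 10.7 ± 0.95 to 5.38 ± 0.90 and ATPCL per AcCoAS from 1.5 ± 0.24 to 1.05 ± 0.19, without overlap. The widest of these differences was in Desat1 per FASN1, the desaturase relative to the synthase, which was 1.21, 1.19 and 1.51 in control and 2.35, 3.43 and 2.65 in NF-YA RNAi libraries. These ratios use the same libraries as the rule that selected the genes and are descriptive.

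The 9 genes have 36 annotated transcripts with estimates, and how a gene's TPM was divided between them was not used to select the genes. SCAP and S1P have 1 transcript each. Over all genes, 6629 transcripts held 10% to 90% of their gene's TPM, and in 11.1% of them the groups lay apart. Among the 9 genes 12 transcripts qualified, and the groups lay apart in 5 (ACC-RF, ACC-RE, Desat1-RA, Desat1-RC and Acsl-RB), those of 1 gene being bound to each other. The smallest p that a two-sided exact permutation test allows with 3 libraries a group is 0.1, which each of the 5 reached.

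ACC mRNA was divided between forms with different start sites, and the division differed between the groups. ACC-RF, with 13 exons, starts at 7989714 on 2R, and ACC-RE, with 11 exons, starts 5651 bases downstream at 7984063. ACC-RF made up 49.9%, 53.6% and 54.2% of ACC in control and 36.9%, 37.3% and 33.0% in NF-YA RNAi libraries (exact permutation p = 0.1, n = 3 each), and ACC-RE made up 47.3%, 46.4% and 45.8% and then 63.1%, 62.7% and 67.0%. In level, ACC-RF went from 10.1 ± 0.58 to 4.24 ± 0.26 TPM without overlap of the groups. ACC-RE went from 8.94 ± 0.90 to 7.64 ± 0.51 TPM, and the groups overlapped. Most of the lower ACC level was thus in the form from the upstream start. Salmon divides reads of shared exons between forms by estimation, and the uncertainty of that step is not in the values used here.

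The division of Desat1 between start sites differed as well. Desat1-RA, from the most upstream of its 3 main starts (12439600 on 3R), held most of the mRNA, at 57.2% ± 0.4 (SD, n = 3) of the gene in control and 52.9% ± 1.7 in NF-YA RNAi libraries. Desat1-RC, which starts 1827 bases further along, held 15.7%, 12.2% and 11.1% in control and 18.9%, 22.8% and 21.3% in NF-YA RNAi libraries (exact permutation p = 0.1, n = 3 each). Its level was 14.9 ± 2.05 TPM in control and 32.1 ± 6.40 TPM in NF-YA RNAi libraries, without overlap. The level of Desat1-RA was 65.9 ± 3.72 and 80.1 ± 6.68 TPM, and that of Desat1-RD, from the start furthest downstream of the 3, 33.6 ± 4.35 and 39.2 ± 3.90 TPM with overlap. The higher Desat1 level in NF-YA RNAi was therefore spread over forms, and Desat1-RC rose the most, both in mean TPM and in relative terms.

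For Acsl, the share of Acsl-RB was 11.2%, 15% and 20.2% in control and 24.2%, 27.3% and 32.3% in NF-YA RNAi libraries (exact permutation p = 0.1, n = 3 each), with 3.12 ± 1.21 and 6.51 ± 0.50 TPM. Acsl-RA, with the same start and end as Acsl-RB, held 20.1% in control library 1 and at most 1.52% in any other library. The separation of Acsl-RB thus depends on how reads were divided between these forms in control library 1. The main form of Acsl, Acsl-RC, varied too widely to compare, from 6.77 to 15.6 TPM among controls alone. FASN1, which starts at 2 sites 391 bases apart, differed little in its division, with FASN1-RC at 83.8% of the gene in control and 84.3% in NF-YA RNAi libraries. ATPCL-RD likewise held 77.0% and 78.9% of ATPCL, and both FASN1 forms and ATPCL-RD were lower in level in all NF-YA RNAi libraries than in any control.

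**Figure D4:**
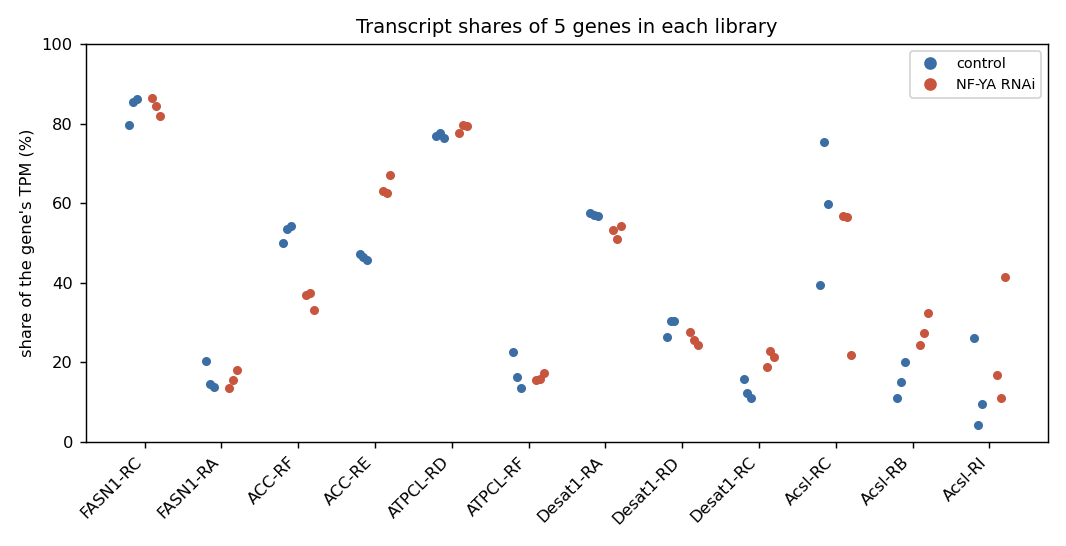
Share of the gene's TPM (y axis, 0 to 100%) held by each of the 12 transcripts with 10% to 90% of their gene, in control (blue) and NF-YA RNAi (red) libraries, 1 point per library. ACC-RF and ACC-RE exchange places between the groups, Desat1-RC and Acsl-RB lie higher in NF-YA RNAi, and the forms of FASN1 and ATPCL overlap.

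The wider lipid synthesis pathway did not follow these genes as a whole. Lists of 99 further gene symbols matched 90 genes, of which 71 could be tested. Of these 71, 5 were called higher and 4 lower by edgeR, with a median log2 fold change of 0.00 beside -0.02 over all genes tested. These counts lie near the background of 6.19% and 8.02%. The number called was 6 to 8 with a library left out. It was 13 with DESeq2, which called 827 higher and 1018 lower of all 9080 genes.

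Among 8 other genes that supply acetyl-CoA, citrate or NADPH, 2 were called higher and 1 lower. Men, the cytosolic malic enzyme that makes NADPH for synthesis, had 61.2, 62.8 and 51.0 TPM in control and 51.8, 43.9 and 41.7 TPM in NF-YA RNAi libraries. Control library 3 and NF-YA RNAi library 2 overlapped in these levels, and the log2 fold change was -0.43 ± 0.12 (standard error; edgeR, adjusted p = 0.039), a call kept in only 2 of the 6 fits with a library left out. Its mitochondrial relative Men-b rose from 47.2 ± 1.70 to 70.8 ± 4.64 TPM (log2 fold change 0.52; edgeR, adjusted p = 0.0065). The citrate synthase gene kdn, the most abundant of this list, rose from 220 ± 11.2 to 303 ± 28.0 TPM (log2 fold change 0.38; edgeR, adjusted p = 0.030), a call that also held in only 2 of those 6 fits. The malic enzymes of the cytosol and the mitochondrion therefore differed in direction.

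Of 28 other fatty acid synthases, elongases, desaturases and their partner enzymes, 12 passed the filter on low counts and 0 were called by edgeR (2 higher at an unadjusted p under 0.05, and 0 called with DESeq2). Their median log2 fold change was 0.23, with 10 of 12 on the higher side beside 4388 of all 9080 genes tested. FASN2, a paralog of FASN1, had 1.45 ± 0.38 TPM in control and 1.84 ± 0.12 TPM in NF-YA RNAi libraries. Cyt-b5, the electron donor of desaturases, was the most abundant with 212 ± 25.2 and 263 ± 16.8 TPM (edgeR, adjusted p = 0.194). Most of the elongases that were not tested had no counts.

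Among the called genes outside the 9, the largest changes were in proteins that bind or activate fatty acids, where 2 of 10 were called higher and 1 lower. The acyl-CoA synthetase gene pdgy had 9.68, 10.1 and 8.33 TPM in control and 24.8, 24.4 and 29.0 TPM in NF-YA RNAi libraries. It stood far above control in all 3 libraries, with a log2 fold change of 1.40 ± 0.12 (standard error; edgeR, adjusted p = 0.00017), whereas Acsl, which catalyses the same step, was not called. The fatty acid binding protein gene fabp, the most abundant lipid gene listed, rose from 751 ± 83.3 to 1359 ± 108 TPM (log2 fold change 0.76; edgeR, adjusted p = 0.0031). The acyl-CoA binding protein gene Acbp2 fell from 148 ± 3.77 to 71.3 ± 3.57 TPM (log2 fold change -1.16; edgeR, adjusted p = 0.00035), close to the fall of SREBP.

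In glycerolipid assembly 1 of 15 genes was called. Lpin, the phosphatidate phosphatase that makes diacylglycerol, had 156, 139 and 127 TPM in control and 95.0, 91.4 and 85.6 TPM in NF-YA RNAi libraries. The groups lay apart, with a log2 fold change of -0.72 ± 0.11 (standard error; edgeR, adjusted p = 0.0040). The most abundant gene of this list, Pcyt1, of phosphatidylcholine synthesis, had 215 ± 13.5 and 224 ± 17.0 TPM (edgeR, adjusted p = 0.90).

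Of 12 regulators of lipid synthesis, edgeR called 1 lower and 0 higher (3 lower and 1 higher at an unadjusted p under 0.05), and DESeq2 called 2 lower and 1 higher. Myc, a transcription factor of growth, fell from 16.7 ± 2.22 to 9.96 ± 1.92 TPM (log2 fold change -0.66; edgeR, adjusted p = 0.0077). The sugar-responsive factor gene sug had a log2 fold change of 0.77 that edgeR did not call (adjusted p = 0.077) and DESeq2 called higher (adjusted p = 0.045). DESeq2 also called SNF4Agamma, the gamma subunit of AMP-activated kinase, lower (adjusted p = 0.023, against 0.074 in edgeR), and alc, the most abundant, which encodes the beta subunit of the same kinase, had 183 ± 12.2 and 180 ± 11.1 TPM. Among 5 genes of mitochondrial fatty acid synthesis, beg was called higher at 28.5 ± 3.67 and 40.2 ± 3.15 TPM (log2 fold change 0.41; edgeR, adjusted p = 0.046), a call lost in all 6 fits with a library left out. The most abundant of these, the acyl carrier protein gene ND-ACP, had 205 ± 46.8 and 244 ± 37.7 TPM (edgeR, adjusted p = 0.569).

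**Figure D5:**
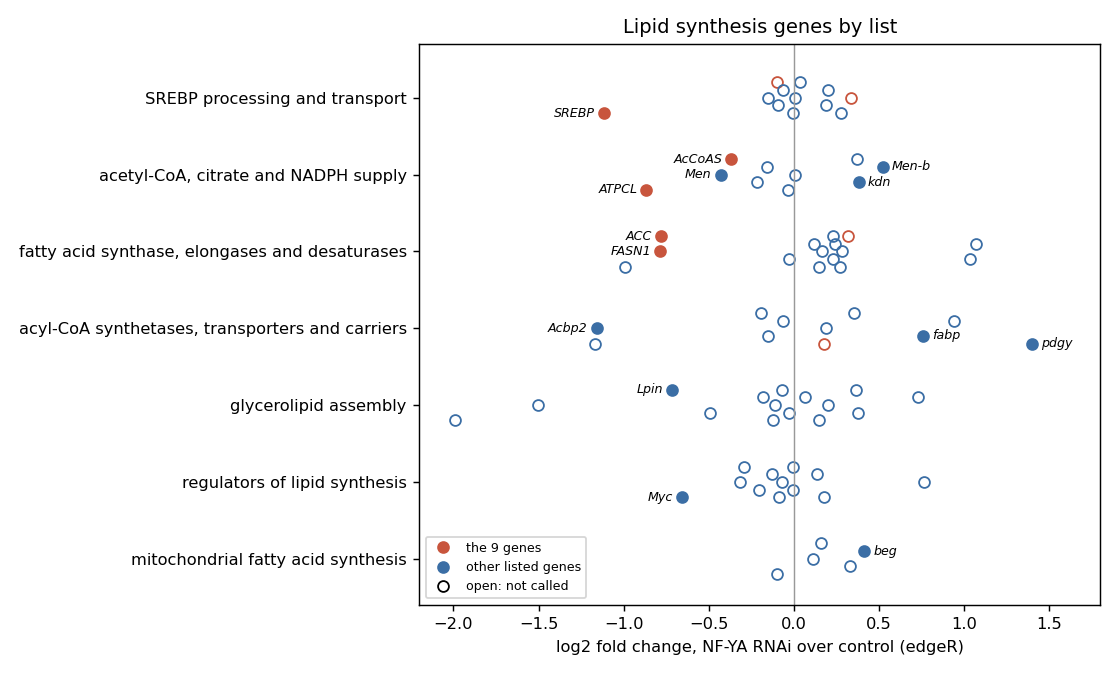
Log2 fold change of NF-YA RNAi over control (x axis) of each tested gene in 7 lists of lipid synthesis genes, with the 9 genes in red and the others in blue. Filled circles are called by edgeR and named. The 5 called genes of the 9 lie left of 0, and the 9 other called genes lie on both sides.

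The genes whose level followed SREBP most closely over the 6 libraries were found by Pearson's r of log2 CPM. They were Atf3, a stress- and lipid-related transcription factor (r = 0.9992), WASp, an actin regulator (r = 0.9985), and Eip63E, a cyclin-dependent kinase (r = 0.9971). ACC ranked 5th and FASN1 10th of 9079 genes, ATPCL ranked 371st, and SCAP 3525th. The genes most like FASN1 were WASp (r = 0.9972), regucalcin (r = 0.9965) and CG4577 (r = 0.9962), with SREBP in 5th place. These values describe libraries in 2 separate groups, so that a gene with the same group difference gets a high r, and 753 genes exceeded an r of 0.9 with SREBP. Like SREBP, Atf3 was lower in NF-YA RNAi (log2 fold change -0.97; edgeR, adjusted p = 0.00041).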

How the data were processed

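The authors sequenced paired-end libraries and, by their methods, used nf-core/rnaseq 3.18.0 with Trim Galore 0.6.10, STAR 2.7.11b, FlyBase release 6.62 and Salmon 1.10.3. The submitters' processing notes name other tools (Trimmomatic, TopHat2, HTSeq, limma), which differ from the Salmon format of the files. The authors deposited estimated counts of 34989 transcripts per library. TPM values were deposited in the same files. The authors also deposited normalized counts of 8470 genes, a signal divided by size factors, with their own fold changes and p-values, which were not used. The filter behind these 8470 genes is not given in the sources used here.

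Estimated counts were summed to genes of BDGP6.54 (Ensembl release 115), without the 44 transcripts in no gene (at most 0.345% of counts), and rounded. Genes passing filterByExpr were compared with edgeR 4.0.16 (TMM, quasi-likelihood test, Benjamini-Hochberg adjustment, threshold 0.05), in R 4.3.3. Standard errors were derived from this test, as the absolute log2 fold change divided by the square root of its F statistic. The main edgeR fit was tested on simulated counts, and the alternatives were not. Transcript shares are shares of a gene's TPM. Each pair of libraries differed beyond counting noise (smallest chi-square of 67.7 per degree of freedom).

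The genes, lists and markers were chosen with earlier results of these data known. All 9 genes are named. From each list the called genes and the gene with the highest mean TPM are named, and other listed genes are named for their role. The 3 genes most like SREBP and FASN1 are named by Pearson's r. Alternatives were DESeq2 1.42.0, its size factors, scaling by library size alone, other filters, length offsets, limma 3.58.1 on log2 of the deposited values plus 1, each library left out, and shared title numbers as a block. Figures were drawn with Python 3.11.15 and matplotlib 3.10.9. The sequences of these genes were not used here.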

Additional observations from a re-analysis of the deposited data

How the results depend on the processing

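SREBP, FASN1, ACC and ATPCL were called lower under each of the 14 alternatives run, with log2 fold changes from -1.19 to -1.03, -0.87 to -0.70, -0.85 to -0.69 and -1.04 to -0.75. AcCoAS was called in 7 of 14 (adjusted p from 0.0044 to 0.367), Desat1 in 2, and SCAP, S1P and Acsl in 0. None of the 9 genes changed direction. Between 4 and 6 of the 9 genes were called under these alternatives (6 with DESeq2). Control and NF-YA RNAi libraries share title numbers 1 and 2, but same-numbered libraries did not deviate together (correlations of 0.05 and -0.02). Control library 3 and NF-YA RNAi library 5 have no partner number and add nothing to the contrast when title numbers are a replicate block. That fit rests on title numbers 1 and 2 only, which leaves little to estimate the spread from. It called 4 of the 9 genes and 6 further lipid genes (2 higher). Over all genes it called 271 higher and 516 lower, against 562 and 728 in the main fit. With a library left out these counts were 192 and 314 (NF-YA RNAi library 4 left out), 188 and 339 (NF-YA RNAi library 5), 231 and 357 (control library 1) and 243 and 415 (control library 2). They stayed nearer the main fit at 507 and 736 (NF-YA RNAi library 2 left out) and 486 and 687 (control library 3). Scaling by library size alone turned the split to 784 higher and 541 lower, 59.2% higher against 43.6%, and moved the median log2 fold change from -0.02 to 0.07. With DESeq2, 8 of the 13 further lipid genes called were higher, beside 44.8% of its calls over all genes. Depth was lowest for S1P, with at least 201 estimated counts per library, and the other 8 genes had at least 5048.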
